A study of Mus musculus with 11 samples.

Results

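The signal transducers and activators of transcription (STATs) and the Janus kinases (Jaks) were examined in astrocytes of 4 adult brain regions, from a list of 9 named genes: Stat2, Stat3, Stat4, Stat5a, Stat5b, Stat6, Jak1, Jak2 and Tyk2. The list was set by gene name and not by a cutoff on measured values, but with earlier results of these data known. All 9 genes were found among the 24421 entries of each sample. Cells positive for eGFP were sorted by FACS from Aldh1l1-eGFP mice on a C57BL/6 background at 16 weeks of age, and their RNA was sequenced. There were 3 samples from the olfactory bulb (OB), 3 from the hippocampus (HC), 2 from the cortex (CX) and 3 from the brainstem (BS), with no treatment. The transgene places eGFP under a bacterial artificial chromosome carrying Aldh1l1 regulatory sequence, so that the sort selects by activity of this construct, and mice of both sexes were used. The labels do not say whether replicates of a region came from separate animals, and p-values then measure only the spread between these samples.

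Cytokines bind paired receptor chains on the cell surface, and Jaks held on the receptors phosphorylate them and the STATs that dock there. Phosphorylated STATs enter the nucleus as dimers and switch on target genes, some of which, such as the Socs genes and Cish, encode inhibitors of the same pathway. In astrocytes the branch from gp130 receptors to Stat3 is best known for its part in Gfap expression and the response to injury, whereas Stat2 serves the type I interferon response together with Irf9. Transcript levels do not report phosphorylation, and no measurement of activity was made here.

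Promoter sequences are shown for Stat2, the member whose promoter held both kinds of motif searched. They are also shown for the interferon-response genes Isg15 and Ifit3 and for Cish, an inhibitor induced by Stat5, whose values are given below. The windows are those of RefSeq on GRCm38, from 250 bases before to 50 bases after the start, and 15 of 17 genes searched had an entry. Capitals mark the core of the interferon-stimulated response element, searched as GAAA and GAAA with 2 bases of any kind between them, in Stat2, Isg15 and Ifit3, and TTCNNNGAA, the STAT palindrome, in Cish. Both strands were searched, so that a match on the other strand appears as its reverse complement, and overlapping matches form one stretch of capitals in Isg15. The Stat2 window is chr10:128270248-128270547 on the plus strand, that of Isg15 chr4:156200769-156201068 on the minus strand, that of Ifit3 chr19:34583279-34583578 on the plus strand and that of Cish chr9:107296409-107296708 on the plus strand.
Stat2: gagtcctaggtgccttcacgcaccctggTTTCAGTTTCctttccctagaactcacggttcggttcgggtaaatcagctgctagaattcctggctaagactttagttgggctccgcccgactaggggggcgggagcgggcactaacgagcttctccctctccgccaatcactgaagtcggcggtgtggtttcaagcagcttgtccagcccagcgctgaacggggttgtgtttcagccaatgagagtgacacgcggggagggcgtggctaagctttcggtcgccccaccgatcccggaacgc
Isg15: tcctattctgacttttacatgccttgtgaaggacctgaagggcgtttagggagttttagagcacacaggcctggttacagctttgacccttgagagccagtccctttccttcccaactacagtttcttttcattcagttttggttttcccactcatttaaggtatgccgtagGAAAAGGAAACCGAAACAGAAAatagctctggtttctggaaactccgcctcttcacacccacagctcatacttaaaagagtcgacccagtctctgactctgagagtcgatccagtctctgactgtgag
Ifit3: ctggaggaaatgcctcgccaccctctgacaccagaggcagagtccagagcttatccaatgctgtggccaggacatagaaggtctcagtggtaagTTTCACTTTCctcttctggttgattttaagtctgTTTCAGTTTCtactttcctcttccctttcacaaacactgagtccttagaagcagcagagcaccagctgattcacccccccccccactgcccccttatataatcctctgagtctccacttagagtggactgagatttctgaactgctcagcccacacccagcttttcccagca
Cish: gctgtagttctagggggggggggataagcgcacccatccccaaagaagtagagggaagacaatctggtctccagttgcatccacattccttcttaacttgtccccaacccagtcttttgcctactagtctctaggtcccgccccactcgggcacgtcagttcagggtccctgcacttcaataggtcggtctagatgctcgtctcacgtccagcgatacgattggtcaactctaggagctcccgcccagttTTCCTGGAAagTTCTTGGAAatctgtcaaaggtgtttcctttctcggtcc

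Positions are counted from 0 at the RefSeq start. The interferon-stimulated response element core occurred in 3.44% of 32851 promoter windows of the same length, TTCNNNGAA in 8.30% and the wider palindrome, TTC and GAA with 4 bases between them, in 6.95%. Among 12 windows of the 9 members, Stat2 held the response element core at -222 and the wider palindrome at -210, and the second start of Stat4 held the core at -97. These letters did not occur in the windows of the other members. Isg15 held 3 matches to the core and Ifit3 held 2, as did Ifit1, while Cish held 2 matches to TTCNNNGAA and Socs3 held 1. Oasl2, another interferon-response gene searched, held 0 matches to the core and to both palindromes. Rtp4 and Socs2 had no entry. A match describes the sequence and does not show that a factor was bound.

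The members spanned a wide range of transcript abundance, and the order of the genes was led by the kinase Jak1 and by Stat3. The deposited value of a gene is its read count divided by 1 size factor per sample (normalized value), and levels of different genes were compared only after division by transcript length. Per kb of transcript, the mean normalized value over 11 samples was 225 for Jak1, 87.1 for Stat3 and 84.7 for Jak2. It was 36.5 for Stat2, 25.3 for Stat5b, 13.2 for Stat6, 11.4 for Stat5a and 7.78 for Tyk2. Stat4 stood last at 0.394 per kb, so that 2 of the 3 kinases and Stat3 were the most abundant members. The recovered reads ranged from 2830746 in a BS sample to 14151670 in an HC sample, and the BS had the lowest median, 3098215.

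No member was a region-specific gene by the thresholds of the study. A gene was called a differentially expressed gene (DEG) where a region exceeded 5 in 2 or more of its samples, with a fold change over 1.5 and an unadjusted p under 0.01 (limma on log2(value + 1)) against the samples of the other regions. Of 9 members, 8 passed the filter on low reads and were tested, and Stat4 did not pass. In the OB, 0 of 8 were called, where 8.04% of the 13875 genes tested were called, and 0 had an unadjusted p under 0.05 (17.6% of all genes). In the HC, 0 of 8 were called against 1.28% of all genes, and 1 had an unadjusted p under 0.05 (5.69%). The CX likewise gave 0 of 8 against 2.77%, with 0 at an unadjusted p under 0.05 (9.89%). In the BS, 0 of 8 were called against 9.03%, and 2 had an unadjusted p under 0.05 (21.3%). On recovered reads, edgeR and DESeq2 also called 0 of 8 in each region. An unadjusted p under 0.05 was given by edgeR to 0 members in the OB, HC and CX and 2 in the BS. DESeq2 gave it to 1 in the HC, 2 in the BS and 0 in the OB and CX. The shares of all genes by these methods are not given here.

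**Figure D1:**
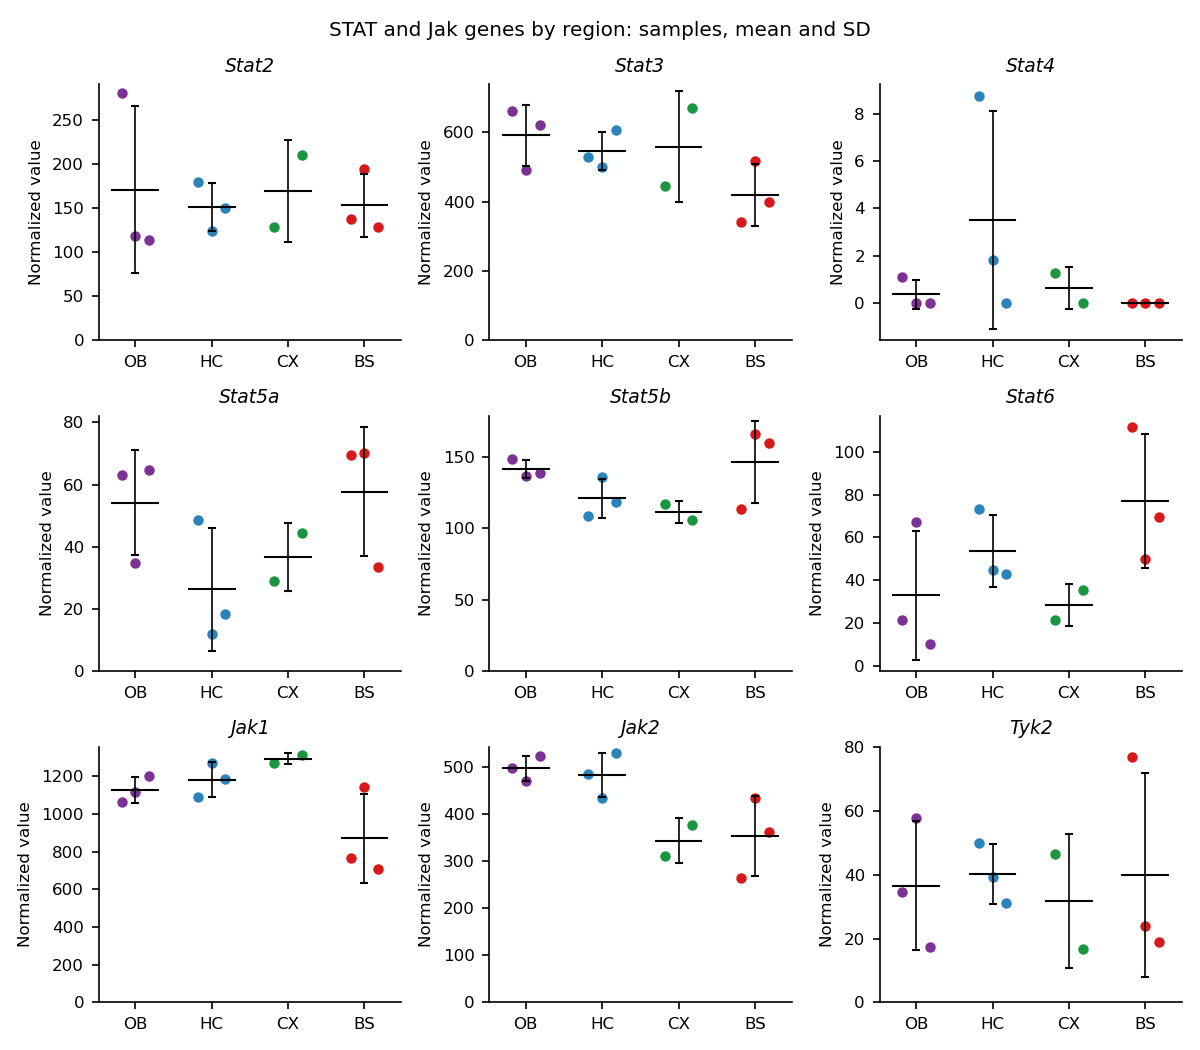
Normalized value (y axis, linear from 0) of each STAT and Jak gene in the 4 regions (x axis), with a point for each sample, a horizontal line at the mean and a bar of 1 SD. No region lies wholly above or wholly below all other samples for any member, and Stat4 is near 0 except in 1 HC sample at 8.75.

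A test across the regions gave the same count. In limma's F test among the 4 regions, 0 of 8 members had an adjusted p under 0.05, against 16.5% of all genes, and 2 had an unadjusted p under 0.05 against 28.7% of all genes (1 member with edgeR and 2 with DESeq2). These were Jak2 (adjusted p = 0.117) and Jak1 (adjusted p = 0.138). Over the 6 pairs of regions, 0 of 48 comparisons had an adjusted p under 0.05, while the share of all genes was 7.11% for OB against HC, 4.91% for OB against CX, 15% for OB against BS, 1.23% for HC against CX, 4.63% for HC against BS and 10.9% for CX against BS. At an unadjusted p under 0.05 there were 11 of 48, with Jak2 in 4 pairs, Jak1 in 3, Stat5a in 2 and Stat3 and Stat6 in 1 each. The matching shares of all genes were 18.4%, 16.3%, 27.3%, 12.4%, 16.1% and 24.3% in the same order of pairs. The within-region SD on the log2 scale had a median of 0.38 over the members and 0.45 over all genes tested. The range of the region means had a median of 0.52 over the members and 0.84 over all genes.

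**Figure D2:**
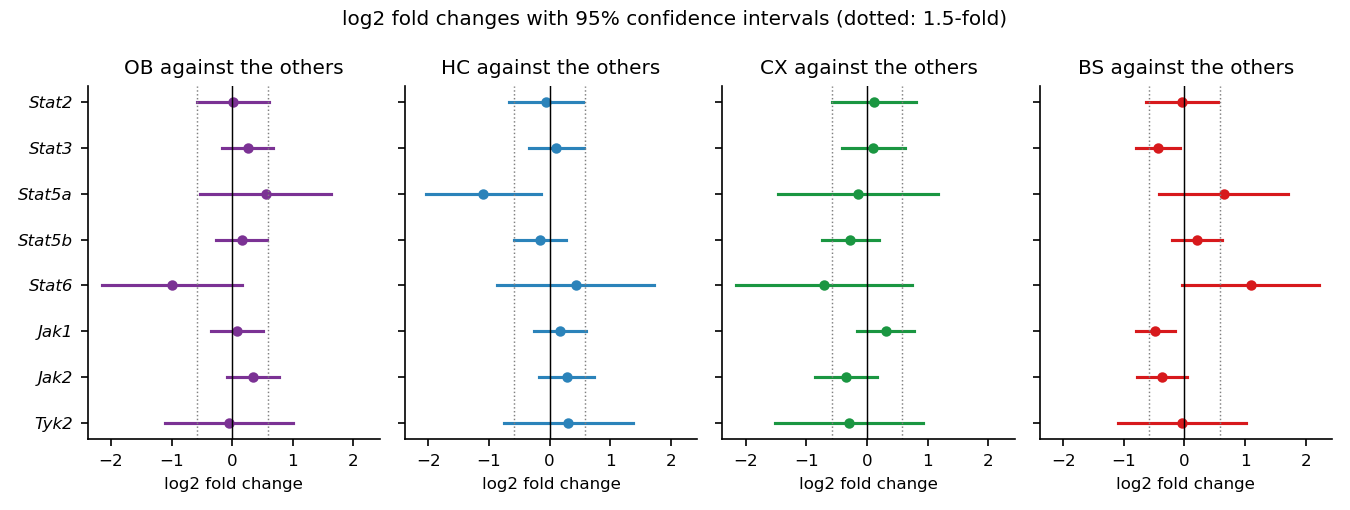
The log2 fold change (x axis) of each tested member (y axis) in each region against the samples of the other regions, with 95% confidence intervals from limma and dotted lines at a 1.5-fold change. The intervals of Jak1 and Stat3 in the BS and of Stat5a in the HC exclude 0, while none of these reached the threshold for a DEG.

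Jak1, the kinase shared by gp130, interferon and gamma-chain receptors, was the member that came nearest to a call. Its normalized values were 1064, 1118 and 1200 in the OB samples, 1087, 1272 and 1185 in those of the HC, 1271 and 1314 in those of the CX and 764, 1140 and 705 in those of the BS. BS replicates 1 and 3 were the lowest of all samples, whereas BS replicate 2 lay among the OB and HC samples. The region means were ordered CX 1293 ± 30.1 (SD, n = 2), HC 1182 ± 92.8 (SD, n = 3), OB 1127 ± 68.5 (SD, n = 3) and BS 870 ± 236 (SD, n = 3). In the BS the log2 fold change was -0.48 with a 95% interval from -0.80 to -0.16 (limma, adjusted p = 0.0821). The unadjusted p was under 0.01, and the exact permutation test over samples gave p = 0.0242, but the 1.39-fold decrease was short of 1.5. Against the CX alone the difference was 1.52-fold (adjusted p = 0.0712) and met the DEG thresholds, as did that of 13.5% of all genes in this pair, the only 1 of the 48 member comparisons between single regions to do so. Between neighbours in the order only OB and BS had an unadjusted p under 0.05 (adjusted p = 0.162).

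The BS samples also differed in their astrocyte content, as judged by the summed normalized value of 9 astrocyte markers, each with reads in every sample. The sum was 94840 in BS replicate 1, 280934 in replicate 2 and 162005 in replicate 3. It ranged from 231884 to 277514 in the OB, from 272768 to 464142 in the HC and from 558103 to 632486 in the CX. The pair of BS samples with the lowest Jak1 thus had the lowest sums of all samples. Of the 9 astrocyte markers 1 was called lower in the BS, and a summed value of 7 oligodendrocyte markers was 50390 to 86514 there against 9073 to 38254 elsewhere. Choroid plexus content (summed value of 9 markers) divided the BS samples as Jak1 did. BS replicates 1 and 3 had 241221 and 118725, and BS replicate 2 had 51320. HC replicates 1 and 3 exceeded BS replicate 3 in this sum, at 143378 and 134415, yet their Jak1 values were 1087 and 1185. In bulk samples, fewer cells of a type and less RNA per cell cannot be told apart, and the part of cell content in the Jak1 values was not tested. Without BS replicate 2, Jak1 (log2 fold change -0.69) and Stat3 (-0.60) passed the threshold in the BS.

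**Figure D3:**
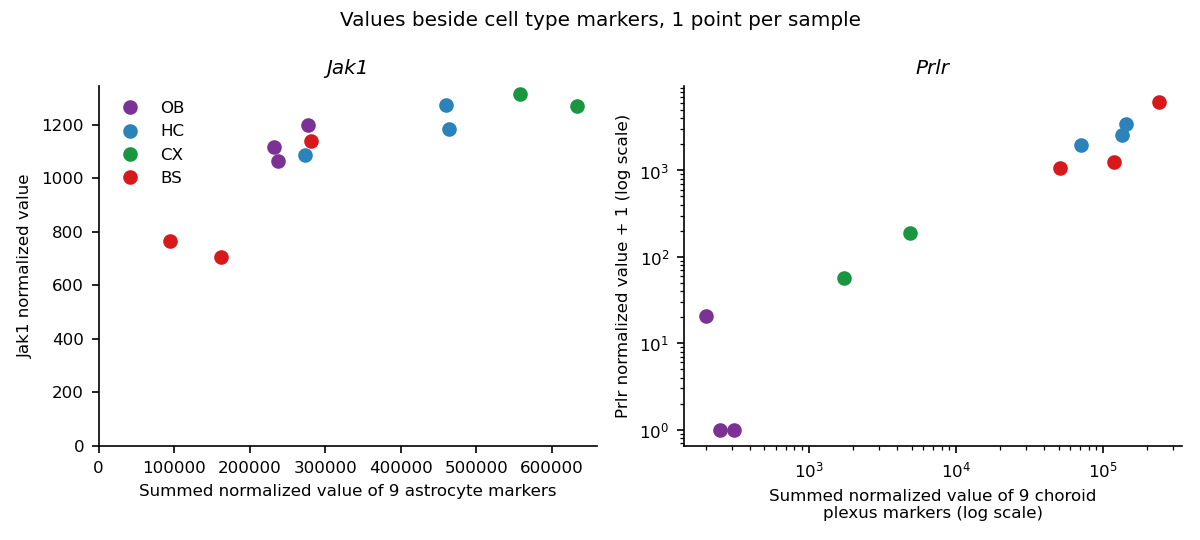
Left, Jak1 normalized value (y axis, linear) against the summed normalized value of 9 astrocyte markers (x axis, linear). Right, Prlr normalized value + 1 against the summed value of 9 choroid plexus markers (both axes log scale), with 1 point per sample coloured by region. BS replicates 1 and 3 have the lowest Jak1 and the lowest astrocyte sums, and the 3 OB samples have the lowest Prlr and the lowest choroid plexus sums.

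Jak2, which serves the receptors of growth hormone, prolactin and erythropoietin as well as gp130, showed a division into OB and HC on one side and CX and BS on the other. It had values of 498, 470 and 524 in the OB and 485, 435 and 529 in the HC. They were 310 and 377 in the CX and 264, 435 and 362 in the BS. BS replicate 2 was level with HC replicate 2, and all other CX and BS samples lay below every OB and HC sample. The share of all genes divided in this way is not given here. The order of the means was OB 497 ± 26.9 (SD, n = 3), HC 483 ± 47.4 (SD, n = 3), BS 354 ± 85.7 (SD, n = 3) and CX 344 ± 47.3 (SD, n = 2). The OB exceeded the CX by 0.54 on the log2 scale (95% interval 0.07 to 1.00, adjusted p = 0.219) and the BS by 0.52 (0.10 to 0.94, adjusted p = 0.094). Between OB and HC the difference was 0.05 with an interval from -0.37 to 0.46. Between CX and BS it was -0.02 with an interval from -0.49 to 0.45, so that neither pair of neighbours differed beyond its spread. The neighbours HC and BS had an unadjusted p under 0.05 (adjusted p = 0.236).

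Tyk2, the kinase of the interferon and interleukin 12 receptors, was the least abundant of the Jaks. Its OB values were 34.7, 57.6 and 17.2, its HC values 49.97, 39.3 and 31.2, its CX values 46.5 and 16.9, and its BS values 76.7, 24.0 and 18.9. Samples of every region were spread over the range of the others, and the highest sample exceeded the lowest 4.55-fold, whereas the region means differed by 1.27-fold. The widest log2 interval of a region against the others was that of the CX, from -1.52 to 0.92. It had 9 reads in BS replicate 3, 11 in CX replicate 2 and 12 in BS replicate 2.

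Stat3, which carries gp130 signals into the nucleus, was the most abundant STAT in each region. Its values in the OB were 660, 493 and 621, and those in the HC were 530, 501 and 606. The CX samples had 445 and 672, and the BS samples had 341, 517 and 400. BS replicates 1 and 3 were again the lowest samples, and BS replicate 2 lay above OB replicate 2 and HC replicate 2. The means were ordered OB 591 ± 87.7 (SD, n = 3), CX 558 ± 160 (SD, n = 2), HC 546 ± 54.3 (SD, n = 3) and BS 419 ± 89.7 (SD, n = 3), a 1.41-fold range. In the BS the log2 fold change of Stat3 was -0.44 (95% interval -0.80 to -0.08, adjusted p = 0.151). No neighbours in this order had an unadjusted p under 0.05, and HC and BS differed by 0.40 on the log2 scale (95% interval -0.05 to 0.84, adjusted p = 0.38).

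Stat5a and Stat5b, a pair of close paralogs that carry growth hormone, prolactin and gamma-chain cytokine signals, behaved differently in their spread. Both lie beside Stat3 on chromosome 11 of GRCm38, with Stat5b from 100780731 to 100850724, Stat5a from 100859351 to 100885169 and Stat3 from 100885098 to 100939540. Stat5a and Stat3 lie on opposite strands and overlap by 72 bases, and whether counting used strand is not given in the sources used here, so that reads in the overlap are uncertain. Reads shared by the paralogs could also be split between them.

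For Stat5b the OB samples had 149, 137 and 139, the HC samples 109, 136 and 118, the CX samples 117 and 106, and the BS samples 114, 166 and 160. All samples fell within a 1.57-fold range. The OB samples lay above all those of the HC and CX, and the BS samples overlapped with each other region. OB replicate 2, at 136.6, was only just above HC replicate 2, at 136.1, and the share of all genes divided in this way is not given here. The within-region SD of Stat5b was the smallest of the tested members, 0.19 on the log2 scale. Means were ordered BS 147 ± 28.8 (SD, n = 3), OB 141 ± 6.46 (SD, n = 3), HC 121 ± 13.9 (SD, n = 3) and CX 111 ± 7.81 (SD, n = 2). The log2 intervals of Stat5b against the other regions ran at the widest from -0.75 to 0.19, in the CX, which corresponds to a fold between 0.596 and 1.14. Neighbours did not differ beyond their spread.

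Stat5a varied more. The OB samples had 63.0, 34.7 and 64.6, the HC samples 48.7, 11.9 and 18.3, the CX samples 28.9 and 44.5, and the BS samples 69.4, 70.1 and 33.7. HC replicates 2 and 3 were the lowest of all samples, and HC replicate 1 lay above 1 sample of the OB, of the BS and both of the CX. The HC mean was 26.3 ± 19.7 (SD, n = 3), below CX 36.7 ± 11.01 (SD, n = 2), OB 54.1 ± 16.8 (SD, n = 3) and BS 57.7 ± 20.8 (SD, n = 3). In the HC the log2 fold change of Stat5a was -1.09 (95% interval -2.05 to -0.14, adjusted p = 0.836). Without HC replicate 1 it was -1.65 and passed the threshold. Neighbouring regions did not differ beyond their spread, and the interval for HC against CX ran from -1.94 to 0.60.

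Stat6, which carries interleukin 4 and interleukin 13 signals, had the widest range over samples of the tested members. Its values were 21.7, 67.1 and 10.2 in the OB and 73.1, 44.8 and 42.9 in the HC. In the CX they were 21.4 and 35.3, and in the BS 111, 50.1 and 69.5. The highest sample was BS replicate 1 and the lowest OB replicate 3, 10.9-fold apart, and OB replicate 2 lay within the range of the BS. The means were BS 77.0 ± 31.4 (SD, n = 3), HC 53.6 ± 16.9 (SD, n = 3), OB 33.0 ± 30.1 (SD, n = 3) and CX 28.3 ± 9.83 (SD, n = 2). Between OB and BS the log2 difference was -1.51 (95% interval -2.75 to -0.28, adjusted p = 0.0976), and neighbours had no unadjusted p under 0.05. Without OB replicate 2 the OB passed the threshold against the other regions (log2 fold change -1.69).

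Stat2, the partner of Irf9 in the type I interferon complex, stood out in a single sample rather than in a region. The OB samples had 280, 118 and 114, the HC samples 179, 124 and 150, the CX samples 128 and 210, and the BS samples 138, 194 and 128. OB replicate 1 was the highest of all samples and OB replicates 2 and 3 the lowest. The region means lay between 151 ± 27.5 (SD, n = 3) for the HC and 171 ± 94.8 (SD, n = 3) for the OB, with 153 ± 35.7 (SD, n = 3) for the BS and 169 ± 57.9 (SD, n = 2) for the CX. These differed by 1.13-fold, the smallest range of the tested members. The log2 fold change in the OB was 0.02 with an interval from -0.57 to 0.61, and no pair of regions differed.

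Stat4, which carries interleukin 12 signals and is best known in T and natural killer cells, was the factor that the study named for the HC from these same samples, so that its level here is not independent evidence. The paper listed it as a prospective factor, but reported that no transcription factor was significantly enriched in the HC. Stat4 had 14 reads in HC replicate 1, 2 in HC replicate 2 and 0 in HC replicate 3. The OB samples had 1, 0 and 0 reads, the CX samples 1 and 0, and the BS samples 0 each. HC replicate 1 stood above all others, with an exact Poisson interval of 7.65 to 23.5 reads, while HC replicate 3, the deepest sample, had 0 reads. With the limit for a count of 0 set at 3 reads, this allows a normalized value of 1.10, and the exact Poisson interval reaches 3.69 reads. A count of 3 reads corresponded to values of up to 6.31 in the shallowest sample, and such intervals cover counting error only.

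In normalized values, the Stat4 mean was 3.52 ± 4.61 (SD, n = 3) for the HC, 0.362 ± 0.627 (SD, n = 3) for the OB and 0.628 ± 0.888 (SD, n = 2) for the CX, and it was listed at 0 in each BS sample. The HC exceeded the other samples by 3.23 on this scale (exact permutation test of the absolute difference of the means, two-sided p = 0.0606). Doubling the smaller tail of the same exact test gave p = 0.121, and the former was taken after the latter had been seen. Without HC replicate 1 the HC held 2 reads and the difference was 0.621 (exact permutation p = 0.222). Leaving out HC replicate 3 gave a difference of 4.99 and an exact permutation p of 0.0222, the smallest p that 2 against 8 samples allow and the only one under 0.05 among the settings run.

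The receptor chain Il12rb1, which binds the subunit shared by interleukins 12 and 23, had 15 reads over all samples, of which 10 were in HC replicate 1. Il12rb2, the chain particular to interleukin 12, had 382 reads and was detected in each of the 11 samples. Il23r and Il12b had 0 reads. The summed value of 12 lymphocyte markers was 0 to 8.22 in the HC, 9 of the 12 had no read in any HC sample, and HC replicate 1 had a sum of 0. HC replicate 1 also had the highest sums of all samples for 8 endothelial markers (3398) and 5 pericyte markers (1524). Its sum of 8 microglia markers was 4584, below the 4942 of HC replicate 2. Within the HC it had the lowest astrocyte sum (272768) and the highest choroid plexus (143378) and oligodendrocyte (38254) sums. The BS samples, with 0 Stat4 reads, had choroid plexus sums of 51320 to 241221 and oligodendrocyte sums of 50390 to 86514. The part of these cells in the Stat4 reads was not tested.

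Genes around the members were counted from 6 lists of pathway genes, 124 in all, of which 91 were tested: ligands, receptors, regulators, known targets of Stat3 and Stat5, and interferon-response genes. In the OB 14 of 91 were called, 11 higher and 3 lower, or 15.4% against 8.04% of all genes (4.15% higher and 3.89% lower). The HC gave 0 of 91 (limma) against 1.28% of all genes, with 10 at an unadjusted p under 0.05 against 5.69%. There were 4 of 91 called in the CX, 1 higher and 3 lower, and 4 of 91 in the BS, 2 higher and 2 lower, each 4.40%. Of all genes 2.77% were called in the CX (1.02% higher and 1.74% lower) and 9.03% in the BS (3.98% higher and 5.05% lower). At an adjusted p under 0.05 the pathway genes gave 8 OB calls, 0 HC calls, 0 CX calls and 2 BS calls, where all genes gave 4.58%, 0%, 0.0144% and 5.42%. By the same thresholds edgeR gave 17 OB, 0 HC, 3 CX and 3 BS calls, and DESeq2 gave 20, 2, 15 and 8. The shares of all genes called by these methods are not given here, so these counts cannot be set against them. The CX count was 0 without CX replicate 2 and 10 without HC replicate 3. OB samples also held more of some other cell types and less of others, with a summed value of 4 neuroblast markers of 581 to 735 against 11.6 to 70.5 elsewhere, and of 4 olfactory sensory markers of 228 to 415 against 2.003 to 6.13. The summed value of 7 oligodendrocyte markers was 9073 to 15109 for the OB against 17474 to 86514 elsewhere, with 4 of the 7 called lower and 1 higher. The part of these cells in the OB calls was not tested.

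The ligands were mostly at or near the detection floor. Of 25, 3 were tested, 8 had no read in any sample and 14, these 8 included, had at most 3 reads in every sample. Lif, a gp130 cytokine, was the ligand called, lower in the OB, as were 3.89% of all genes. Its values were 3.26, 0.789 and 4.31 in the OB samples, 18.7, 43.8 and 44.0 in those of the HC, 50.3 and 19.9 in those of the CX and 2.10, 14.0 and 8.42 in those of the BS. All OB samples lay below those of the HC and CX, and BS replicate 1 lay among the OB samples. The share of all genes with this division is not given here. The log2 fold change in the OB was -2.49 ± 0.80 (SE) with an adjusted p of 0.103, and the call was lost without any one of the OB, HC or CX samples. Between single regions, the OB was below the HC by 9.95-fold (adjusted p = 0.013) and below the CX by 9.54-fold (adjusted p = 0.0393).

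Of 28 receptors 24 were tested, with 1 called higher and 1 lower in the OB, 1 higher in the CX and 0 in the HC and BS. The shares of all genes were 4.15% higher and 3.89% lower in the OB and 1.02% higher in the CX. In the HC 1.28% of all genes were called, and in the BS 9.03%. Il6st, which encodes gp130, the shared signalling chain, had 2909, 2707 and 2724 in the OB. Elsewhere it ranged from 1403 to 2009 in the HC, from 1699 to 1959 in the CX and from 1620 to 2715 in the BS. The OB samples were above all others but BS replicate 2, and the OB was 1.53-fold higher (log2 fold change 0.61 ± 0.18 (SE), adjusted p = 0.0753). This fold sat at the threshold, and leaving out any OB sample or HC replicate 1 ended the call.

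Cntfr, the receptor chain particular to ciliary neurotrophic factor, was higher in the CX. It had 2601 and 2306 there, 1316, 1188 and 1292 in the OB, 681, 1225 and 1139 in the HC, and 1327, 2332 and 1248 in the BS. Both CX samples exceeded every other sample but BS replicate 2, which lay between them. The CX was 1.96-fold higher (log2 fold change 0.97 ± 0.30 (SE), adjusted p = 0.337), and the call was lost without HC replicate 3, without OB replicate 2, or without either CX sample, which leaves 1 CX sample assumed to vary like the other regions.

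The other gp130 partners were not called against the rest by limma. Lifr had region means of 1603 ± 178 (SD, n = 3) for the OB and 1058 ± 12.7 (SD, n = 2) for the CX, with an adjusted p of 0.375 for the OB against the rest. Osmr had 395, 290 and 248 in the HC against 72.7 to 309 elsewhere, a log2 difference of 1.17 (adjusted p = 0.768), and OB replicate 2 lay above 2 of the 3 HC samples. Between single regions the HC exceeded the BS by 3.02-fold (adjusted p = 0.049), and DESeq2 called Osmr lower in the BS (log2 fold change -1.20).

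Prlr, the prolactin receptor, which signals through Jak2 and Stat5, was lower in the OB. Its values were 0, 19.7 and 0 in the OB samples, 3421, 1964 and 2608 in those of the HC, 190 and 55.2 in those of the CX and 6145, 1076 and 1261 in those of the BS. All OB samples lay below all others, as did those of 3.24% of all genes. The CX samples lay below those of the HC and BS, for which the share of all genes is not given here. The mean was 6.58 in the OB and 2090 in the other samples (adjusted p = 0.0014), a fold that depends on the pseudocount where samples are at 0. The summed value of 9 choroid plexus markers moved with it, from 202 to 310 for the OB, 1728 to 4871 for the CX, 70389 to 143378 for the HC and 51320 to 241221 for the BS. Of these 9, 8 were called lower in the OB and 2 had no read in any OB sample, and their part in the Prlr values was not tested.

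**Figure D4:**
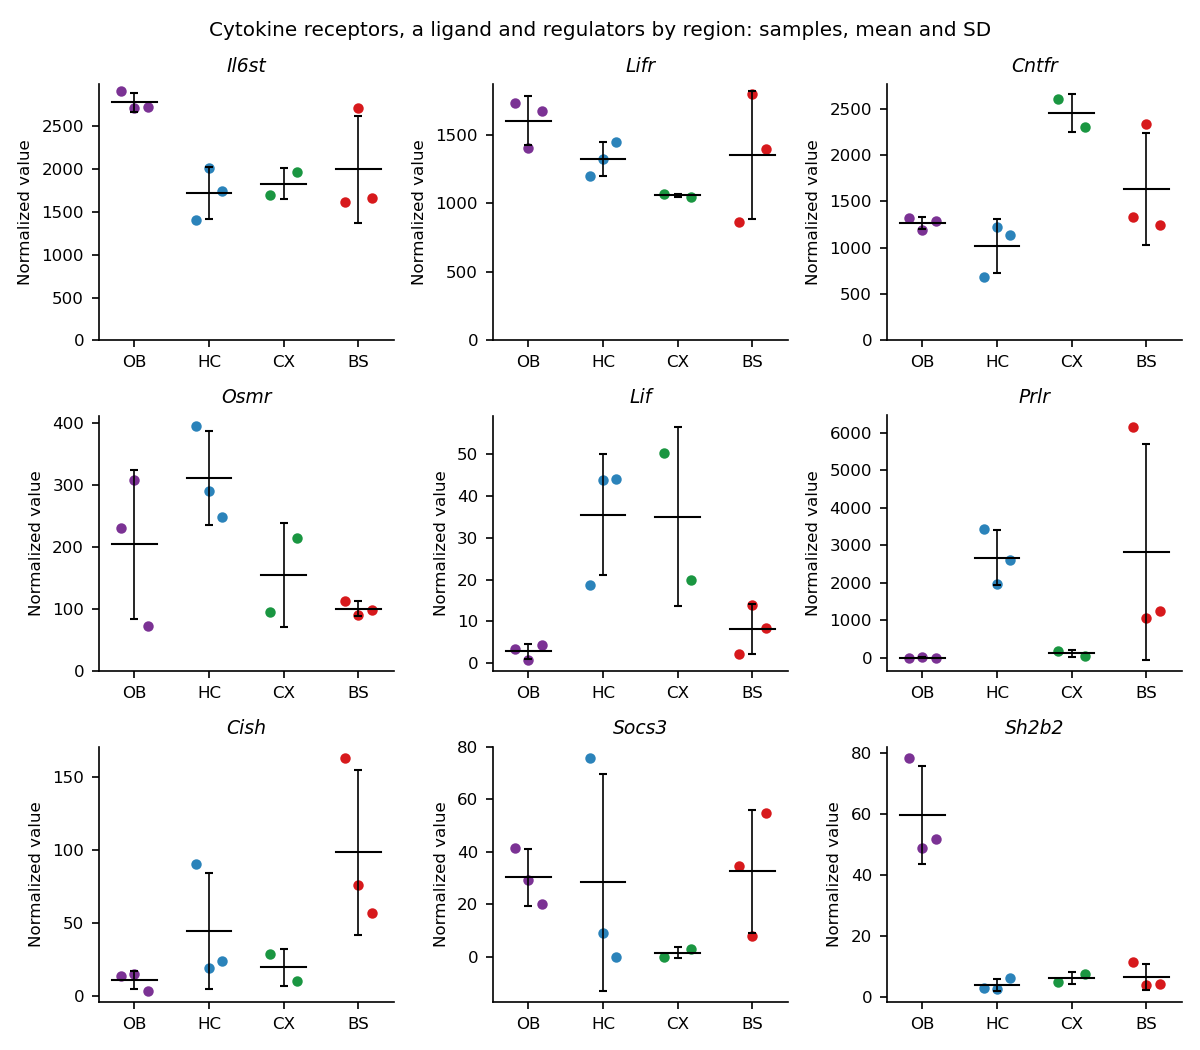
Normalized value (y axis, linear) of 4 gp130-family receptor genes, the ligand Lif, the receptor Prlr and 3 regulators in the 4 regions (x axis), with a point per sample, the mean as a line and 1 SD as a bar. Sh2b2 is above 48 in each OB sample and below 12 in all other samples, and Prlr is at or near 0 in the OB.

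Of 21 regulators 20 were tested, and 1 was called higher in the OB (4.15% of all genes) and 1 higher in the BS (3.98%). Sh2b2, an adaptor that binds Jak2 and receptor kinases, had 78.2, 48.9 and 51.7 in the OB and 2.74 to 11.6 in all other samples. The OB samples did not overlap with the rest, where 4.93% of all genes had OB samples all above the others, and the log2 fold change was 3.28 ± 0.50 (SE) with an adjusted p of 0.0019.

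Cish, an inhibitor induced by Stat5, was higher in the BS. It had 163, 76.1 and 56.8 in the BS, 14.1, 15.0 and 3.77 in the OB, 90.6, 19.2 and 24.2 in the HC, and 28.9 and 10.7 in the CX. HC replicate 1 was the only other sample within the range of the BS. The log2 fold change was 2.23 ± 0.68 (SE) with an adjusted p of 0.0737, and the call was lost with edgeR and without BS replicate 1 or 2. Stat5a and Stat5b had their highest means in the same region without passing the test. BS replicate 1 and HC replicate 1, with the highest Cish values, had choroid plexus sums (9 markers) of 241221 and 143378, the highest of their regions. The OB, with the lowest Cish mean, had sums of 202 to 310. BS replicate 2 had more Cish than BS replicate 3 with a lower sum, 51320 against 118725. The part of these cells in the Cish values was not tested. Socs3, the inhibitor of gp130 signals, was not called by limma, with 0 and 3.07 in the CX against 0 to 75.6 in the HC (CX adjusted p = 0.409), while DESeq2 called it lower in the CX (log2 fold change -4.37). Socs2 had 198 in BS replicate 1 and 4.60 to 72.8 in the other samples. It was not called by limma, whereas DESeq2 called it higher in the OB (log2 fold change 1.33) and lower in the CX (-2.39).

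Among 15 genes listed as Stat3 targets, 13 were tested. The OB had 2 higher (4.15% of all genes) and 1 lower (3.89%), and the BS 1 higher (3.98%). The HC and CX had 0, where 1.28% and 2.77% of all genes were called. Serpina3n, a protease inhibitor of reactive astrocytes, had 371, 559 and 336 in the OB and 31.4 to 131 elsewhere (log2 fold change 2.58 ± 0.41 (SE), adjusted p = 0.0022). Vim, which encodes the intermediate filament vimentin, had 1333, 1058 and 1123 in the OB and 176 to 680 elsewhere (1.77 ± 0.32, adjusted p = 0.0048). Neither overlapped with the other regions, and the share of all genes was the 4.93% given above. Bcl2l1, an inhibitor of cell death, was lower in the OB (log2 fold change -0.95, adjusted p = 0.068) and the call was lost without OB replicate 2 or 3. Hif1a, the oxygen-sensing factor, was higher in the BS, with 1726, 2789 and 1705 against 602 to 980 elsewhere (1.47 ± 0.20, adjusted p = 0.000556), and for 3.7% of all genes the BS samples all lay above the others.

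Gfap itself, the astrocyte filament gene that Stat3 is known to drive, had 3168 to 4028 in the OB and 3370 to 3976 in the HC. The CX samples had 889 and 1309, and the BS samples 1160 to 1779. The OB and HC samples lay above all CX and BS samples, and the share of all genes divided in this way is not given here. The test among the 4 regions was passed (limma's F test, adjusted p = 4.22e-05), as by 16.5% of all genes. The OB exceeded the CX by 3.23-fold (adjusted p = 0.000406) and the BS by 2.43-fold (adjusted p = 0.000424). The HC exceeded the CX by 3.39-fold (adjusted p = 0.000816) and the BS by 2.56-fold (adjusted p = 0.000736). Against the rest no region passed the DEG thresholds with limma or edgeR, while DESeq2 called Gfap lower in the CX (log2 fold change -1.39) and in the BS (-1.03).

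Of 7 genes listed as Stat5 targets 5 were tested. Of these 2 were higher in the OB (4.15% of all genes) and 2 lower in the BS (5.05% of all genes). Igf1, a growth factor, had 385, 532 and 457 in the OB and 28.0 to 88.3 elsewhere (log2 fold change 3.02 ± 0.31 (SE), adjusted p = 0.000108). Bcl2, an inhibitor of cell death, was 1.72-fold higher in the OB (adjusted p = 0.0391), a call lost without OB replicate 3. Bcl6, a repressor that competes with Stat5 at shared sites, was lower in the BS by 2.11-fold (adjusted p = 0.0199). Ccnd2, a cyclin, was lower in the BS by 1.91-fold (adjusted p = 0.0749), and this call was lost without BS replicate 2 or 3 or OB replicate 3.

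The interferon-response genes, which Stat2 and Irf9 serve, gave 5 higher and 0 lower in the OB, 0 higher and 3 lower in the CX, and 0 in the HC and BS, of 26 tested among 28. The shares of all genes were 4.15% higher and 3.89% lower in the OB and 1.02% higher and 1.74% lower in the CX. In the HC 1.28% of all genes were called, and in the BS 9.03%. The median log2 fold change of the list was 1.14 in the OB and -1.002 in the CX, against 0.02 and -0.03 over all genes tested. The OB set held Ifit3, Ifit1, Rtp4, Oasl2 and Isg15, all induced by interferon, the last pair named here after their values were seen. Ifit3 had 393, 202 and 162 in the OB and 41.0 to 144 elsewhere (log2 fold change 1.66 ± 0.36 (SE), adjusted p = 0.017). Isg15, whose promoter is shown above, had 128, 23.7 and 19.4 in the OB and 4.77 to 20.6 elsewhere (1.98 ± 0.64, adjusted p = 0.105), with OB replicate 3 below HC replicate 1. The Isg15 call was lost with no filter on low reads and without OB replicate 1, HC replicate 3, BS replicate 2 or 3 or either CX sample, and DESeq2 gave it no p. That of Oasl2 was lost without OB replicate 1 or 2, HC replicate 3 or CX replicate 2, and that of Rtp4 without OB replicate 1 or 3.

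One sample carried much of this pattern. OB replicate 1 was the highest of the 11 samples for 23 of the 26 genes, whereas it was the highest for 7.26% of all genes tested, and it was also the sample with the highest Stat2. Oasl2 had 646 in OB replicate 1 and 150 and 112 in the other OB samples, and Ifit1 had 329 against 130 and 99.7. Without OB replicate 1, 1 of 25 genes tested was called higher in the OB (Ifit3), where 2.72% of all genes were called higher. Irf9, the partner of Stat2, had 91.2 in OB replicate 1 and 18.4 to 65.2 in the other samples, and was not called in any region.

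**Figure D5:**
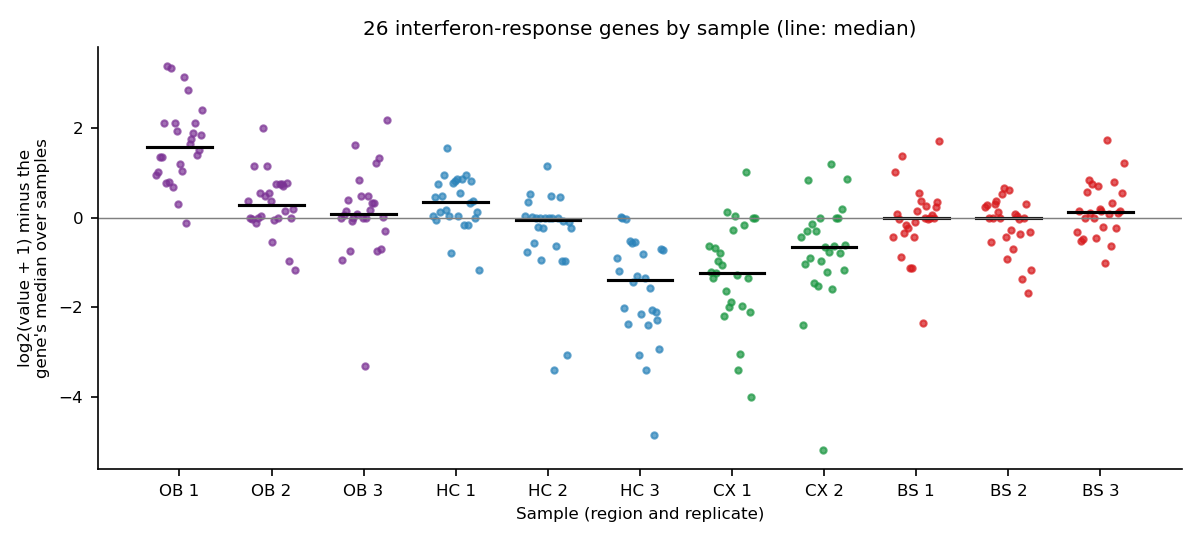
For each sample (x axis), log2(value + 1) of 26 interferon-response genes minus the gene's median over the 11 samples (y axis), with 1 point per gene and a line at the sample's median. OB replicate 1 has a median of 1.57, and HC replicate 3 and both CX samples have medians of -1.40, -1.23 and -0.65.

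In the CX the genes called lower were Ifih1, Ddx58 and Irf1. Ifih1, a sensor of viral RNA, had 113 and 84.3 in the CX and 164 to 404 elsewhere (2.45-fold lower, adjusted p = 0.136). Ddx58, the sensor RIG-I, had 56.5 and 70.5 there and 101 to 375 elsewhere (2.53-fold lower, adjusted p = 0.247). For both, the CX samples lay below all others, as did those of 3.15% of all genes. Irf1 had 8.79 and 0 in the CX and 3.30 in HC replicate 3 (adjusted p = 0.287). All of these calls were lost without CX replicate 2, that of Ddx58 also without CX replicate 1 and that of Irf1 with edgeR.

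The level of the list is given beside that of other cell types. The median deviation was -1.40 in HC replicate 3 and 0.35 in HC replicate 1, where the summed value of 8 microglia markers was 1675 and 4584 and that of 8 endothelial markers 605 and 3398. It was -0.04 in HC replicate 2, with sums of 4942 and 1688, and 0.08 in OB replicate 3, with sums of 1534 and 372. In OB replicate 1, at 1.57, these sums were 3181 and 1627, within the range of the other samples. In the CX samples the median was -1.23 and -0.65, with microglia sums of 1912 and 2459 and endothelial sums of 479 and 1963. The BS samples had medians of -0.01, 0 and 0.12, microglia sums of 1900, 1454 and 2772 and endothelial sums of 1969, 1927 and 2599. OB replicate 2 had a median of 0.28, with sums of 3886 and 1070. The part of these cells in the interferon-response values was not tested.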

How the data were processed

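RNA was measured in FACS-sorted Aldh1l1-eGFP astrocytes, 11 samples in 4 groups, each the region that the label gives. Alignment by the authors used STAR 2.5.0a and mm10, counting used UCSC transcript models, and DESeq2 1.20.0 supplied the normalization, as named in the paper and the submitters' processing notes. The deposited unit is a normalized signal, each sample's counts divided by 1 size factor. Values were whole multiples of 1 step per sample within 0.01, so that reads were recovered.

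Genes were kept by edgeR's filterByExpr on recovered reads and compared by limma 3.58.1 under R 4.3.3, two-sided with its trend option, after log2(value + 1), over all 13875 genes. Fold changes are on this scale, which understates changes of low genes. Adjusted p-values follow Benjamini and Hochberg over all genes tested. Alternatives were edgeR 4.0.16 and DESeq2 1.42.0 on recovered reads, a pseudocount of 0.25, TMM, no filter, no trend, the mean of region means, a block for replicate number, and each sample left out in turn. Tables and permutation tests were made in Python 3.11.15 (pandas 2.3.3, scipy 1.17.1, numpy 2.4.6), and plots in matplotlib 3.10.9. Scripts were tested on simulated data. Coordinates and transcript lengths are those of GENCODE on GRCm38.

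The genes named are all members, Il6st, Lifr, Osmr, Cntfr, Socs2, Socs3, Cish, Irf9 and Gfap, up to 6 further called genes of each list by smallest p, and the 3 genes most correlated with each of the 3 members with the largest F. The members and lists were chosen with earlier results of these data known. The interferon-stimulated response element motif, Oasl2 and Isg15 were added after values were seen. Protein sequences were not analysed here. One correlated gene is not reported here.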

Additional observations from a re-analysis of the deposited data

How the results depend on the processing

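For the members, 251 log2 fold changes under other settings and 322 with a sample left out kept their direction and their side of the threshold. A further 31, none past the threshold, changed sign. Of these 5 came from other settings, Stat2 for the CX (-0.0034) and Tyk2 for the OB (0.0204) and the BS (0.0307) with the replicate number as a block, and Tyk2 for the BS with edgeR (0.12) and DESeq2 (0.16). The other 26 came from leaving out 1 sample and touched 10 results. Stat2 then ranged from -0.40 to 0.25 (OB), -0.19 to 0.0743 (HC), -0.25 to 0.46 (CX) and -0.22 to 0.0785 (BS), and Tyk2 from -0.45 to 0.39 (OB), -1.01 to 0.41 (CX) and -0.64 to 0.34 (BS). Stat3 ranged from -0.19 to 0.40 and Stat5a from -0.45 to 0.15 for the CX, and Jak1 from -0.008 to 0.12 for the OB. The threshold was crossed only with 1 sample left out. The number of members called then ranged from 0 to 1 for the OB (Stat6 without OB replicate 2), 0 to 1 for the HC (Stat5a without HC replicate 1), 0 to 0 for the CX and 0 to 2 for the BS (Jak1 and Stat3 without BS replicate 2). Members differing among regions ranged from 0 to 2, and pairs of regions from 0 to 5, the highest without BS replicate 2 in both. The Stat4 difference ranged from 0.621 without HC replicate 1 to 4.99 without HC replicate 3.

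Pathway calls moved more. With the mean of region means as the reference OB calls went from 14 to 24, HC calls from 0 to 6, CX calls from 4 to 15 and BS calls from 4 to 12. DESeq2 gave 2 HC, 15 CX and 8 BS calls, and an adjusted p under 0.05 left 8 OB, 0 CX and 2 BS calls. With a sample left out the counts ranged from 8 to 16 for the OB (8 without OB replicate 1), 0 to 2 for the HC, 0 to 10 for the CX (0 without CX replicate 2, 2 without CX replicate 1 and 10 without HC replicate 3) and 3 to 6 for the BS. In the HC, leaving out 1 of 6 samples (OB replicate 1 or 2, HC replicate 1, either CX sample or BS replicate 1) gave 1 or 2 calls. The cause of these shifts was not tested. Without OB replicate 1, 5.8% of all genes were called in the OB. For the other left-out samples, DESeq2 and the mean of region means, the share of all genes is not given here. Of the named pathway genes, 162 results under other settings kept their call and 13 lost it, and no called direction reversed in the settings run. DESeq2 gave no p for Isg15.

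With the replicate number as a block there were 7 pathway calls in the CX and 1 in the HC, and the matching shares of all genes are not given here. The block on replicate number ended the calls of Lif, Cntfr, Ccnd2 and Oasl2. The numbers were not taken to pair the samples in the main fits. Deviations of 15 same-numbered pairs correlated from -0.160 to 0.25, and 3 exceeded 0.1. However, 7 of 11 samples correlated best with their own number, so these values do not settle whether the samples were paired. Stat4 and all but 3 of the 25 ligands did not pass the filter on low reads. With 3 against 8 samples an exact permutation p cannot fall below 0.00606, and with 2 against 9 below 0.0182.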

Other observations

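As a description over 11 samples that share region and library, the genes whose log2(value + 1) followed a member most closely were taken from the 13875 tested. For Jak1 these were Galnt16 (Pearson r = 0.966), Plcd4 (0.965) and Fam69c (0.953). Galnt16, a glycosyltransferase, had its highest region mean, 404, in the CX and its lowest, 151, in the BS. Plcd4, a phospholipase C, likewise had 405 and 190. For Jak2 they included Mzt1 (0.930) and F2r (0.915), and F2r, a thrombin receptor, had an OB mean of 87.8 and a CX mean of 36.6. For Stat6 they were Plk2 (0.959), Pdk1 (0.934) and Cd82 (0.920), and Cd82, a tetraspanin, had 112 in the BS and 46.1 in the OB.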
